A study of Mus musculus with 18 samples.

Results

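The cornified envelope is the cross-linked protein shell that replaces the plasma membrane when an epidermal keratinocyte dies at the skin surface. Its genes and their late differentiation partners were taken from a table of reads over coding sequences by symbol: all symbols starting with Lce1, Lce3 or Sprr, and 17 symbols chosen by name (Lor, Flg2, Ivl, Tgm1, Tgm3, Casp14, Hrnr, Rptn, Cnfn, Cdsn, Klk5, Klk7, Aloxe3, Alox12b, Elovl4, Asprv1 and Spink5). The rule found 51 rows among 20655, and 45 of them had a read in at least 1 library, against 16293 such genes in the whole table. The 45 members comprised 14 Lce1, 2 Lce3, 2 Sprr1 and 8 Sprr2 genes, Sprr3, Sprr4 and the 17 named genes. Lce3a, Lce3b, Lce3d, Lce3f, Sprr2a1 and Sprr2a2 had no read in any library.

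The libraries came from mouse embryos whose epidermis was transduced with shRNA in utero at E9.5 and was collected at E18.5. There were 3 conditions, each with 3 libraries of ribosome footprints and 3 libraries of total RNA, 18 in all. HrasG12V shEif2b5 carried the oncogenic G12V form of the small GTPase Hras and received an shRNA against Eif2b5, which encodes the catalytic subunit of the initiation factor eIF2B. HrasG12V shScram had the same genotype and a scrambled shRNA, and WT shScram was wild type for Hras with the scrambled shRNA. The labels name the strain FR-HrasG12V for both HrasG12V conditions and a tdTomato and EGFP reporter at Gt(ROSA)26Sor for WT, so strain and Hras genotype cannot be told apart, and 1 WT footprint library (number 1) has Rosa26 as its genotype. A WT shEif2b5 condition was not analysed here. The samples are labelled as enriched basal cells, obtained with dispase and trypsin in the presence of cycloheximide. The labels do not say whether the 3 libraries of a condition came from separate animals, so p-values measure the spread between these libraries.

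As background, keratinocytes leave the basal layer, pass through the spinous layer and in the granular layer make the precursors of the envelope. Loricrin, involucrin, the small proline-rich (Sprr) proteins and the late cornified envelope (Lce) proteins are joined by transglutaminases, while proteases process filaggrin-like proteins and loosen the junctions between dead cells. Lipoxygenases and fatty acid elongases prepare the lipids that coat the shell. Sprr genes are also known to be raised in injured and hyperplastic epidermis.

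Of the members, 33 lie on chromosome 3 between positions 92080271 and 93399442 (mm10), the epidermal differentiation complex, a stretch of 1.319 Mb. The promoters of Rptn, Sprr1b and Sprr1a, on whose values the results turn most, are shown for a motif they share. Each is the 250 bases upstream of the gene's start in RefSeq (GRCm38.p6), 5′ to 3′ on the gene's strand. Capitals mark matches to TGANTCA, a loose form of the AP-1 motif in which the middle base N can be any base. The windows are chr3:93393449-93393698 on the plus strand for Rptn, chr3:92438780-92439029 on the minus strand for Sprr1b and chr3:92485882-92486131 on the minus strand for Sprr1a.
Rptn: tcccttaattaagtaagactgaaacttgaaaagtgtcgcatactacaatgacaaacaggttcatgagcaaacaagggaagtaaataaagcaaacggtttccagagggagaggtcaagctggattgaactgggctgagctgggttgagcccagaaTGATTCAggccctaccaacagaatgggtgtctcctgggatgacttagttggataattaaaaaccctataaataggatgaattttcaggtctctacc
Sprr1b: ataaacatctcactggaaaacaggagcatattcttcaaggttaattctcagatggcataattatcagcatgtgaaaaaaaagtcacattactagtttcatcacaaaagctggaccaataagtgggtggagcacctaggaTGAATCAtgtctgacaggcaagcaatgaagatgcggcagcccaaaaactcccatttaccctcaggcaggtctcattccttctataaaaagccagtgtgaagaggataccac
Sprr1a: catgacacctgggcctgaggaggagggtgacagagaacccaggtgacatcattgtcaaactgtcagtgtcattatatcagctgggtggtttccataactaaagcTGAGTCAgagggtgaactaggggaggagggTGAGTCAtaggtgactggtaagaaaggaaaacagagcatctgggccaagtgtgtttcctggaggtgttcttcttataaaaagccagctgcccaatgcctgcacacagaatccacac

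Rptn and Sprr1b each had 1 match in this window and Sprr1a had 2. The site was TGATTCA in Rptn and TGAATCA in Sprr1b and Flg2, which is the same site read on the opposite strand. Both sites of Sprr1a were TGAGTCA. The 3 promoters therefore share the motif only with its middle base left open. The motif reads the same on both strands, so each site counts once. It was present in 13 of the 42 members that have a promoter in the RefSeq table, against 6.75% of all 32851 promoters of the same length. The 13 were Lor, Ivl, Flg2, Rptn, Sprr1a, Sprr1b and 7 Sprr2 genes. The Sprr2 genes are 1 family of neighbouring genes, and how alike their promoters are was not measured. Of 3 other motifs searched on both strands, the ETS motif AGGAAG was in 17 of 42 members (29.48% of all promoters), the KLF motif CCACCC in 14 (28.08%) and the C/EBP motif TTGCNNAA in 5 (9.56%). A match describes the letters in the window and no binding was measured.

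Library totals over coding sequences were 3319175 to 4933298 reads for footprints and 1771365 to 5505386 reads for RNA. The 3 deepest RNA libraries were HrasG12V shScram 1 (5214473 reads) and 3 (4310239 reads) and WT shScram 3 (5505386 reads). None was from HrasG12V shEif2b5, whose RNA libraries had 2209327 to 2812627 reads, so depth was not balanced across the conditions. Libraries 1 and 3 of HrasG12V shScram are also those left out together in a check below. That check leaves only RNA library 2 in the condition, so it cannot show whether a call holds, and only its log2 values are given. Levels are given as CPM, a gene's counts relative to the total of its library after TMM scaling within each kind. Eif2b5 itself had 134, 128 and 143 CPM of RNA in HrasG12V shEif2b5 libraries 1 to 3, against 127, 388 and 145 CPM in HrasG12V shScram (log2 fold change −0.68, adjusted p = 0.257), so its RNA overlapped between these conditions and library 2 of HrasG12V shScram stood apart. Its footprints were 82.7, 78.5 and 95.4 CPM in HrasG12V shEif2b5, against 91.9, 93.1 and 102 CPM in HrasG12V shScram (−0.16, adjusted p = 0.994). In WT shScram, Eif2b5 RNA was 158, 179 and 159 CPM and footprints were 102, 106 and 102 CPM. Every WT library lay above every HrasG12V shEif2b5 library in both kinds, though these conditions also differ in Hras genotype and strain. The basal label was set against marker lists. The summed RNA of 12 spinous genes, which include Krt1 and Krt10, ran from 35548 to 101353 CPM over the 9 RNA libraries, above the 11677 to 21885 CPM of 15 basal genes, and Lor, a granular layer gene, reached 4842 CPM. RNA of suprabasal cells was therefore present in all conditions. Summed RNA of dermal fibroblast markers was 846 to 927 CPM in HrasG12V shEif2b5, 995 to 1674 CPM in HrasG12V shScram and 810 to 2650 CPM in WT shScram. Of 8 tested genes on a list of periderm and simple epithelial keratins and related genes, 4 rose in HrasG12V shEif2b5 RNA relative to HrasG12V shScram (Krt6a, Krt6b, Krt17 and Krt19), against 5.23% of all genes. In HrasG12V shScram RNA relative to WT shScram, 1 of the 8 rose and 1 fell (4.65% and 3.05% of all genes), as in footprints (1.23% and 0.472%). In HrasG12V shEif2b5 relative to WT shScram, 3 of the 8 rose in RNA and none fell (0.225% and 0.0991%). In footprints of that comparison 3 rose and 1 fell (0.76% and 0.21%). The part of such cells in the results was not tested. In bulk samples of this kind, fewer cells of a type and less RNA per cell cannot be told apart.

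The 45 members held 0.392% to 0.876% of the RNA counts and 0.299% to 0.629% of the footprint counts of a library. Most of the signal came from a few genes. Lor took between 16.1% and 54.2% of the members' RNA in a library, but between 11.5% and 22.4% of their footprints. Per kilobase of coding sequence, Lor had the highest mean RNA level, with 1931 ± 579 CPM per kb in HrasG12V shEif2b5, 1449 ± 1441 in HrasG12V shScram and 2022 ± 1221 in WT shScram (SD, n = 3 libraries). Asprv1, a protease that processes profilaggrin, came next at 418 ± 60.1 CPM per kb in HrasG12V shEif2b5, 633 ± 40.3 in HrasG12V shScram and 488 ± 141 in WT shScram, followed by Ivl and Elovl4. Lor stood above Asprv1 in every RNA library of HrasG12V shEif2b5 and WT shScram, but in library 3 of HrasG12V shScram the order was reversed, with 457 CPM per kb for Lor and 678 for Asprv1. In WT shScram RNA the library ranges of Ivl (188 to 393) and Elovl4 (192 to 267) overlapped. In footprints, Asprv1 had the highest mean per kilobase in all 3 conditions, at 817 ± 282 CPM per kb in HrasG12V shEif2b5, 786 ± 109 in HrasG12V shScram and 682 ± 250 in WT shScram, and its range overlapped that of Lor in HrasG12V shEif2b5 and in WT shScram.

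Differential tests used edgeR's quasi-likelihood fit over all genes, with a call at a Benjamini-Hochberg adjusted p under 0.05. The filter on low counts left 24 of the 45 members in RNA and 24 in footprints, and those removed were mainly Lce1, Lce3 and Sprr2 genes. Between HrasG12V shScram and WT shScram RNA, 1 member (Rptn) rose and none fell, against 7.7% of all 11096 genes called, 4.65% higher and 3.05% lower. Between HrasG12V shEif2b5 and HrasG12V shScram RNA, 2 members (Flg2 and Asprv1) fell and none rose, against 13% of all genes called, 5.23% higher and 7.79% lower. As shares of the 24 members tested, 4.17% and 8.33% were called in these 2 comparisons, below the share of all genes in each. No member was called between HrasG12V shEif2b5 and WT shScram RNA, where 0.324% of all genes were, 0.225% higher and 0.0991% lower. At an unadjusted p under 0.05 the members numbered 2 of 24 for HrasG12V shScram against WT shScram (25.3% of all genes). The number was 4 of 24 when HrasG12V shEif2b5 was set against HrasG12V shScram (30.5%) and 6 of 24 when it was set against WT shScram (7.32%). Against WT shScram, the HrasG12V shEif2b5 number was a larger share than that of all genes, and in the other comparisons the share was smaller.

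In footprints, 1 member (Sprr1a) fell in HrasG12V shScram relative to WT shScram and none rose, against 1.7% of 11448 genes called, 1.23% higher and 0.472% lower. No member was called between HrasG12V shEif2b5 and HrasG12V shScram, where edgeR called 0% of all genes, 4.53% had an unadjusted p under 0.05, and the DESeq2 Wald test called 1 gene, not a member. None was called between HrasG12V shEif2b5 and WT shScram, against 0.97% of all genes, 0.76% higher and 0.21% lower. The members' median log2 fold change for HrasG12V shScram against WT shScram was 0.31 in RNA (0.01 over all genes tested) and 0.21 in footprints (−0.01). For HrasG12V shEif2b5 against HrasG12V shScram the members' median was −0.33 in RNA (−0.01 over all genes) and 0.15 in footprints (0.00). For HrasG12V shEif2b5 against WT shScram it was −0.05 in RNA (0.00) and 0.31 in footprints (−0.01). Each pair of these comparisons shares the libraries of 1 condition.

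Members whose libraries did not overlap were counted among the 24 tested in each kind, with the shares of all genes in parentheses. In RNA there were 2 higher and none lower in HrasG12V shScram than in WT shScram (13.7% and 12.4% of all genes), 4 lower and none higher in HrasG12V shEif2b5 than in HrasG12V shScram (15.2% and 13.4%), and 4 higher and 2 lower in HrasG12V shEif2b5 than in WT shScram (7.68% and 8.34%). Of 24 members, the 4 higher than in WT shScram were a larger share than that of all genes. The 4 lower than in HrasG12V shScram were close to the share of all genes. In footprints there were 2 higher and 1 lower in HrasG12V shScram than in WT shScram (10.4% and 9.89%), 1 higher and none lower in HrasG12V shEif2b5 than in HrasG12V shScram (5.5% and 5.59%), and 2 higher and none lower in HrasG12V shEif2b5 than in WT shScram (8.32% and 7.75%).

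**Figure D1:**
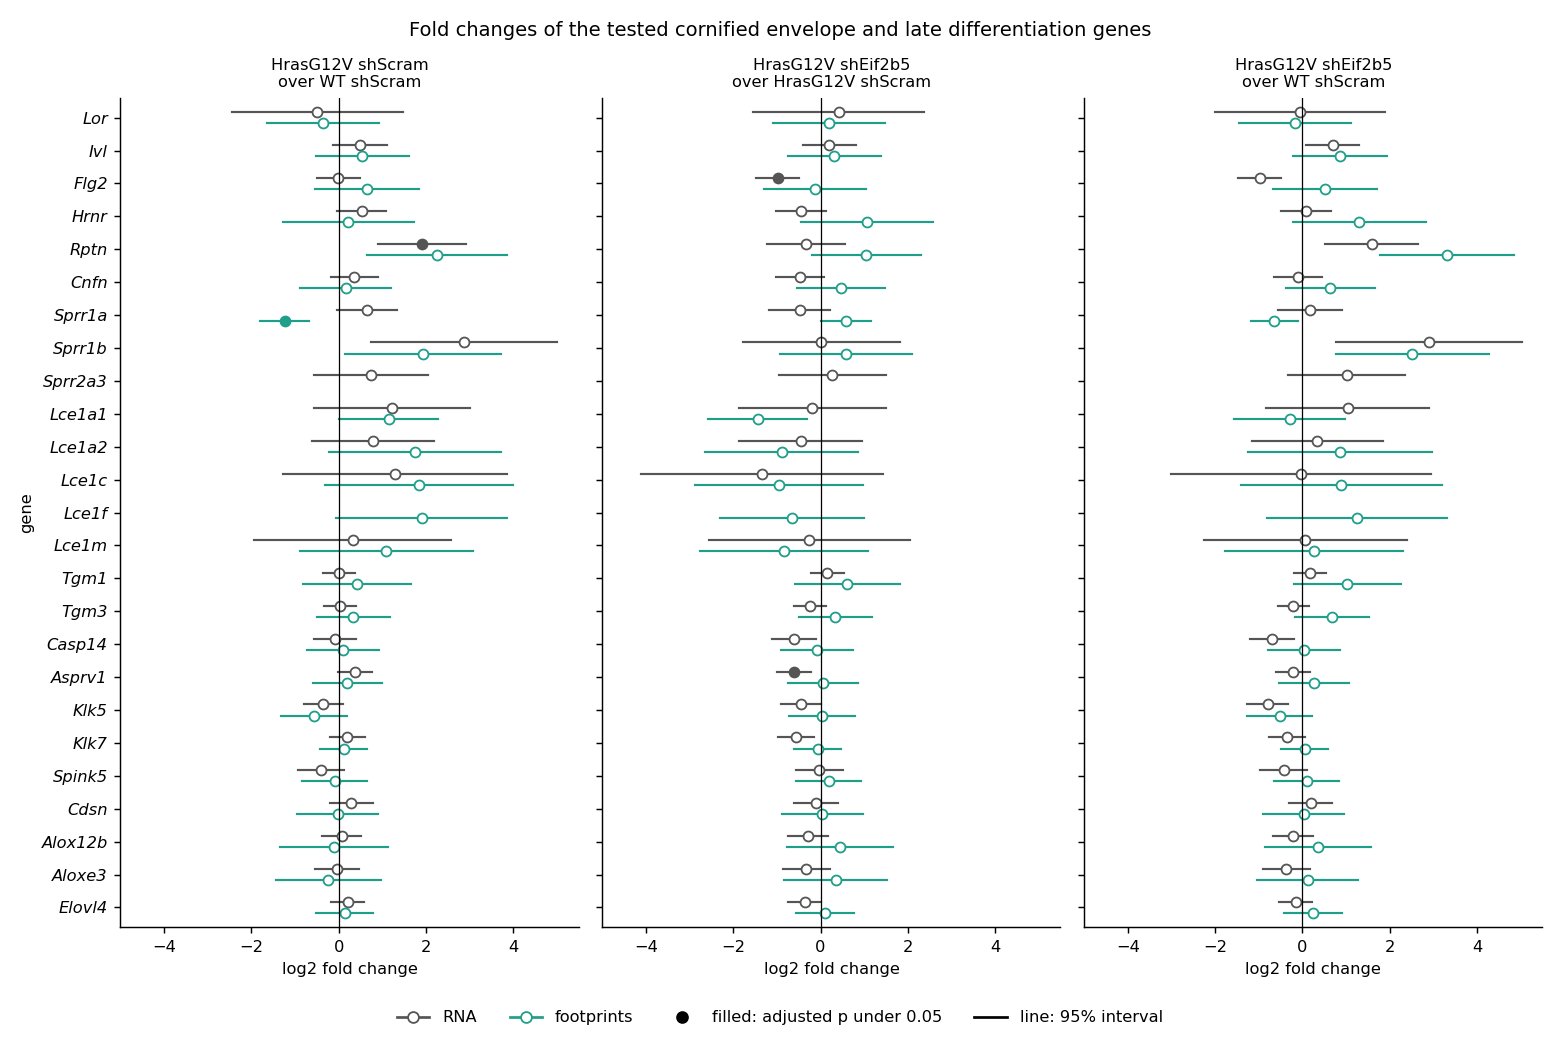
Log2 fold changes (x axis) of every member tested (y axis), with 95% intervals, in RNA (grey) and footprints (green) for the 3 comparisons. Filled points have an adjusted p under 0.05, which holds for Rptn in RNA and Sprr1a in footprints at the left and for Flg2 and Asprv1 in RNA in the middle.

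Rptn was the only member to rise. It encodes repetin, a calcium-binding protein of the fused S100 family that is built into the envelope. Rptn RNA was 7.40, 19.2 and 13.2 CPM in HrasG12V shEif2b5, 27.5, 12.2 and 8.85 CPM in HrasG12V shScram, with 2.83, 6.61 and 3.98 CPM in WT shScram. Every HrasG12V library lay above every WT library, with a narrow gap between the lowest HrasG12V shEif2b5 library and the highest WT library. Its footprints were 15.1, 77.8 and 52.3 CPM in HrasG12V shEif2b5, 25.4, 21.8 and 22.4 CPM in HrasG12V shScram, with 5.02, 5.21 and 4.26 CPM in WT shScram. The WT footprint values were close together, and again no HrasG12V library reached down to them. Counts behind the footprints were 75 to 349 reads per library in HrasG12V shEif2b5, 80 to 114 in HrasG12V shScram and 17 to 23 in WT shScram.

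Rptn RNA rose in HrasG12V shScram relative to WT shScram (log2 fold change 1.92, SE 0.47, adjusted p = 0.0264). In footprints the corresponding difference was 2.26 (SE 0.68, adjusted p = 0.204), and for HrasG12V shEif2b5 against WT shScram it was 3.31 (SE 0.65, adjusted p = 0.0825), neither of which passed. For HrasG12V shEif2b5 against WT shScram RNA it was 1.58 (SE 0.49, adjusted p = 0.322), and between both HrasG12V conditions it was −0.33 in RNA and 1.05 in footprints (adjusted p = 0.623 and 0.994). The RNA call was lost without HrasG12V shScram library 1 (0.141), without WT shScram library 1 (0.108), 2 (0.0507) or 3 (0.107) and with a term for the 3 deepest RNA libraries (0.0637). The log2 fold change was 1.197 without HrasG12V shScram library 1 and 1.47 without libraries 1 and 3, but 1.73, 2.22 and 1.81 without WT shScram library 1, 2 or 3 and 1.84 with the depth term. DESeq2's Wald test called the footprint difference from WT in HrasG12V shScram (0.00731) and in HrasG12V shEif2b5 (3.62e-06), and without HrasG12V shEif2b5 footprint library 1 edgeR called the difference of that condition from HrasG12V shScram (log2 1.49, adjusted p = 0.000329) and from WT shScram (3.74, adjusted p = 6.91e-09).

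Sprr1b and Sprr1a encode small proline-rich proteins that bridge other envelope proteins. No 28-base stretch of either coding sequence matches the annotated coding sequence of another gene exactly, so by this measure a 28-base read fits only 1 gene. Within the gene, 30.56% of the windows of Sprr1b and 11.36% of those of Sprr1a occur more than once. How reads in such repeats were counted is not given, and their part in the footprint and RNA values was not tested. Sprr1b RNA was 45.9, 93.6 and 133 CPM in HrasG12V shEif2b5, 77.3, 165 and 34.8 CPM in HrasG12V shScram, with 14.2, 22.1 and 3.62 CPM in WT shScram. Its footprints were 26.6, 75.2 and 89.4 CPM in HrasG12V shEif2b5, 38.8, 56.5 and 32.5 CPM in HrasG12V shScram, with 8.37, 21.3 and 2.75 CPM in WT shScram. All HrasG12V libraries exceeded all WT libraries in both kinds, and the spread within each condition was wide. For HrasG12V shScram against WT shScram the difference was 2.88 in RNA (SE 0.88, 95% interval 0.75 to 5.01, adjusted p = 0.106) and 1.93 in footprints (SE 0.74, adjusted p = 0.320). For HrasG12V shEif2b5 against WT shScram it was 2.91 in RNA (SE 0.89, adjusted p = 0.483) and 2.52 in footprints (SE 0.73, adjusted p = 0.204). None of these passed in edgeR, while DESeq2's Wald test called the RNA difference of HrasG12V shScram (0.0155) and the footprint difference of HrasG12V shEif2b5 (0.0404), and edgeR with a term for the 3 deepest RNA libraries called the RNA difference of HrasG12V shScram from WT shScram (log2 3.45, adjusted p = 0.0333).

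Sprr1a footprints were 9.25, 12.3 and 9.57 CPM in HrasG12V shEif2b5, 5.57, 9.01 and 6.27 CPM in HrasG12V shScram, with 19.2, 18.8 and 10.5 CPM in WT shScram. HrasG12V shScram was lowest in all its libraries, below every library of both other conditions. Sprr1a RNA was 9.25, 15.6 and 9.39 CPM in HrasG12V shEif2b5, 19.1, 20.5 and 9.93 CPM in HrasG12V shScram, with 12.9, 12.4 and 6.69 CPM in WT shScram, and the conditions overlapped. Footprints fell in HrasG12V shScram relative to WT shScram by 1.23 on the log2 scale (SE 0.27, adjusted p = 0.0210), whereas RNA differed by 0.65 in the other direction (SE 0.33, adjusted p = 0.221). The footprint counts behind this were 25, 33 and 28 reads in HrasG12V shScram, against 69, 83 and 42 in WT shScram. The call was lost without HrasG12V shScram footprint library 1 (0.156) or 3 (0.114) and without WT shScram footprint library 1 (0.0994) or 2 (0.119), with log2 values of −1.09 to −1.16.

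**Figure D2:**
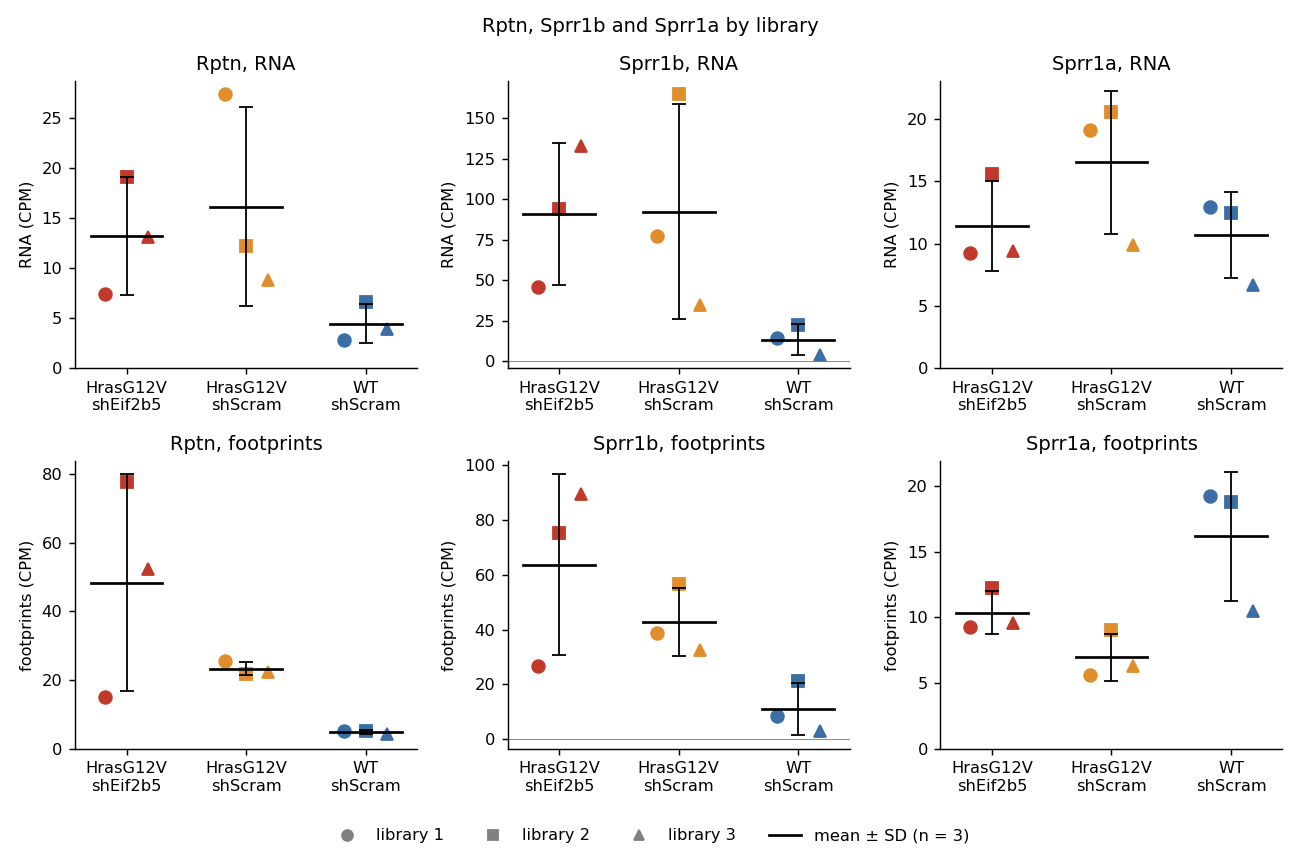
CPM (y axis) of Rptn, Sprr1b and Sprr1a in RNA (top) and footprints (bottom) for the 3 conditions (x axis), 1 point per library with the mean and SD (n = 3). Rptn and Sprr1b were above every WT library in both HrasG12V conditions, and Sprr1a footprints in HrasG12V shScram (5.57 to 9.01 CPM) were below every library of the other conditions.

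Translation efficiency was tested as the part of a footprint difference not matched by RNA, in 1 model over the 18 libraries and 23 members. Sprr1a was the only member called. It was lower in HrasG12V shScram than in WT shScram by a log2 value of −1.89 (SE 0.45, adjusted p = 0.0380), where 1.18% of 10793 genes were called, 0.139% higher and 1.04% lower. Dividing footprint by RNA CPM of libraries with the same number within each condition gave, for Sprr1a, 1.00, 0.786 and 1.02 in HrasG12V shEif2b5, 0.292, 0.439 and 0.632 in HrasG12V shScram and 1.49, 1.51 and 1.57 in WT shScram. These ratios did not overlap between any 2 conditions. For HrasG12V shEif2b5 against HrasG12V shScram the modelled difference was 1.07 (SE 0.46, adjusted p = 0.197), in a comparison with 2.28% of genes called (1.96% higher and 0.315% lower) and no member among them, and for HrasG12V shEif2b5 against WT shScram it was −0.82 (SE 0.45, adjusted p = 0.836), where 0% of genes were called and 5.86% had an unadjusted p under 0.05. The Sprr1a call was lost when any of 9 single libraries was left out (adjusted p up to 0.131), with values of −1.57 to −2.11. Without HrasG12V shScram RNA libraries 1 and 3 together the value was −2.25.

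Lor was at the low end of the ratio of mean footprint to mean RNA, at 0.238 in HrasG12V shEif2b5, 0.277 in HrasG12V shScram and 0.255 in WT shScram. By number, its ratios were 0.218, 0.273 and 0.222 in HrasG12V shEif2b5, 0.447, 0.120 and 1.04 in HrasG12V shScram and 0.136, 0.283 and 0.394 in WT shScram. The HrasG12V shScram value rested on library 2, and without that number it was 0.666, above that of Sprr1a (0.408). The ratios of means sat at percentile 6.44 in HrasG12V shEif2b5, 6.28 in HrasG12V shScram and 6.72 in WT shScram of the 10793 genes tested in both kinds. In HrasG12V shEif2b5, Lce1a1 was lower (0.218), and in WT shScram Lce1a2 was below Lor when number 1 (0.280, against 0.307 for Lor) or number 3 (0.160, against 0.230) was left out. At the upper end in WT were Klk7 (2.53 in HrasG12V shEif2b5, 1.81 in HrasG12V shScram and 1.90 in WT shScram) and Elovl4 (2.39 in HrasG12V shEif2b5, 1.72 in HrasG12V shScram and 1.81 in WT shScram). The ratio for Rptn was 3.66 in HrasG12V shEif2b5, 1.43 in HrasG12V shScram and 1.08 in WT shScram, the highest of the 23 members in HrasG12V shEif2b5. Over the members, the median log2 ratio was 0.41 in HrasG12V shEif2b5, −0.33 in HrasG12V shScram and −0.24 in WT shScram, while over all genes no condition's median was below −0.04 or above 0. The modelled differences of the members had medians of 0.49 for HrasG12V shEif2b5 against HrasG12V shScram (0.04 over all genes), 0.48 against WT shScram (0.01) and −0.07 for HrasG12V shScram against WT shScram (−0.02). The HrasG12V shEif2b5 libraries were not alike in this. Footprint library 1 was the lowest of its 3 for 20 of 22 members at 5 CPM or more, and RNA library 1 for 12. The higher medians of that condition therefore rest mainly on footprint libraries 2 and 3. The 12 spinous genes had a median of 0.62 for HrasG12V shEif2b5 against HrasG12V shScram with none called, and the part of suprabasal RNA in the members' values was not tested.

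**Figure D3:**
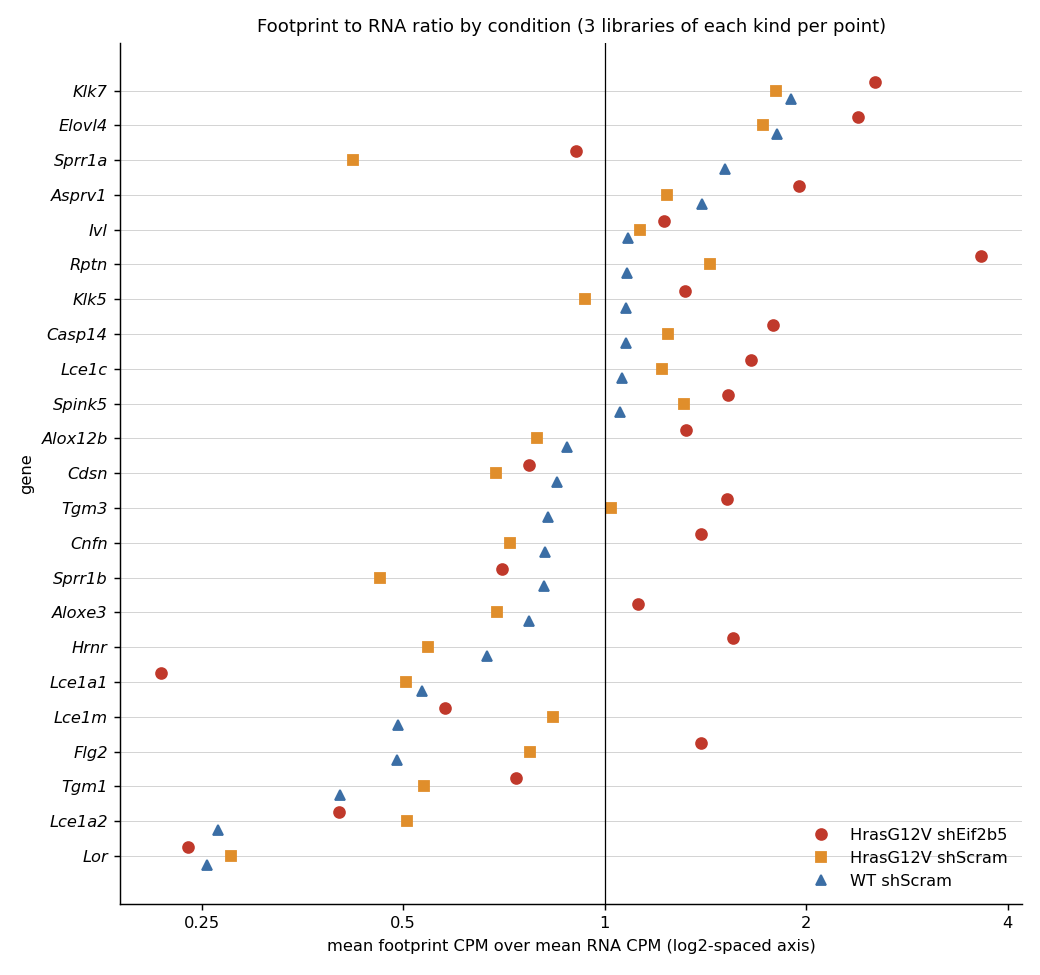
Ratio of mean footprint CPM to mean RNA CPM (x axis, log2-spaced) for the 23 members tested in both kinds (y axis, ordered by the WT value), 3 libraries of each kind per point. Lor lay at 0.238 to 0.277 (0.666 in HrasG12V shScram without library 2), Rptn reached 3.66 in HrasG12V shEif2b5, and Sprr1a was at 0.908 in HrasG12V shEif2b5, 0.421 in HrasG12V shScram and 1.51 in WT shScram.

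Among the structural proteins, Flg2 (filaggrin-2, a fused S100 protein, chromosome 3 from 93197278 to 93221391 on the plus strand, mm10) was the second called in RNA. It measured 145, 243 and 117 CPM in HrasG12V shEif2b5, against 376, 270 and 349 CPM in HrasG12V shScram, with 323, 404 and 274 CPM in WT shScram. All HrasG12V shEif2b5 libraries lay below all others. The RNA fell by 0.98 on the log2 scale relative to HrasG12V shScram (SE 0.23, adjusted p = 0.0164), and the difference from WT shScram was −0.98 too (SE 0.23, adjusted p = 0.115). Flg2 footprints were 148, 400 and 156 CPM in HrasG12V shEif2b5, 196, 186 and 387 CPM in HrasG12V shScram, with 133, 190 and 168 CPM in WT shScram. They overlapped between conditions, and the difference between both HrasG12V conditions was −0.13 (95% interval −1.30 to 1.05, adjusted p = 0.994). The RNA call was lost without HrasG12V shEif2b5 library 1 (0.0783) or 3 (0.0773), without HrasG12V shScram library 1 (0.0732) or 3 (0.0637), and with a term for the 3 deepest RNA libraries (0.135). The log2 fold change was −0.77 to −0.94 without a single one of these libraries and −0.67 without HrasG12V shScram libraries 1 and 3 together. With the depth term it was −0.98, as in the fit without that term. DESeq2 also called the difference from WT (0.00756), as did edgeR without HrasG12V shEif2b5 library 2 (−1.34, adjusted p = 0.0103).

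Ivl, involucrin, an early envelope scaffold, had RNA of 560, 576 and 621 CPM in HrasG12V shEif2b5, 578, 620 and 333 CPM in HrasG12V shScram, with 275, 551 and 263 CPM in WT shScram. HrasG12V shEif2b5 was above every WT library by a small margin, with a difference of 0.69 that was not called (SE 0.28, adjusted p = 0.596). Ivl footprints were 373, 905 and 877 CPM in HrasG12V shEif2b5, 613, 591 and 523 CPM in HrasG12V shScram, with 327, 612 and 244 CPM in WT shScram. The HrasG12V shScram values lay within a narrow band, while library 1 of HrasG12V shEif2b5 was near the lower WT values. Hrnr (hornerin), another fused S100 protein, had 246, 877 and 1203 CPM of footprints in HrasG12V shEif2b5, 340, 357 and 410 CPM in HrasG12V shScram, with 269, 498 and 179 CPM in WT shScram, and its differences from HrasG12V shScram (1.07, adjusted p = 0.994) and from WT shScram (1.30, adjusted p = 0.426) did not pass. Of the Hrnr coding sequence, 76.25% of 28-base windows occur more than once within the gene, and a read of that length within them has no single position in the gene. The share was 33.02% for Flg2 and 27.11% for Rptn. Cnfn, cornifelin, was not called in any of the 9 tests.

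Lor, loricrin, the most abundant envelope protein, had RNA of 1950, 2858 and 3638 CPM in HrasG12V shEif2b5, 1148, 4523 and 667 CPM in HrasG12V shScram, with 2695, 4842 and 1307 CPM in WT shScram. Its level varied by up to 6.78-fold among the libraries of HrasG12V shScram, and libraries 1 and 3 of that condition were among the lowest of all. Lor footprints were 425, 780 and 808 CPM in HrasG12V shEif2b5, 514, 543 and 696 CPM in HrasG12V shScram, with 365, 1371 and 515 CPM in WT shScram, so the low RNA of those 2 libraries was not matched in the footprint libraries of the same number. Nothing was called, and for HrasG12V shScram against WT shScram RNA the 95% interval ran from −2.44 to 1.47.

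The Lce genes gave few reads. Lce1m, the only Lce1 gene that shares almost no sequence with the others (2.12% of its 28-base windows), had RNA of 32.6, 37.9 and 23.5 CPM in HrasG12V shEif2b5, 2.10, 43.3 and 69.7 CPM in HrasG12V shScram, with 21.04, 40.02 and 29.5 CPM in WT shScram. Its footprints were 22.1, 22.5 and 9.57 CPM in HrasG12V shEif2b5, 7.80, 28.7 and 60.1 CPM in HrasG12V shScram, with 5.30, 23.1 and 16.0 CPM in WT shScram. HrasG12V shScram held both the lowest RNA library and the highest library of both kinds, and no test called the gene. The order of the 3 libraries was the same in RNA and footprints in each of the 3 conditions, which also held for Lce1a1, Casp14, Spink5 and Sprr1b among 22 members at 5 CPM or more. The RNA and footprint libraries of a number shared this order although the labels do not say that a number marks 1 source.

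Summed over the 14 Lce1 genes, RNA was 63.7, 75.5 and 41.3 CPM in HrasG12V shEif2b5, 11.5, 89.4 and 151 CPM in HrasG12V shScram, with 33.2, 65.7 and 53.5 CPM in WT shScram. The corresponding footprint sums were 37.4, 43.3 and 16.7 CPM in HrasG12V shEif2b5, 13.6, 57.1 and 112 CPM in HrasG12V shScram, with 11.99, 34.01 and 29.8 CPM in WT shScram. Library 1 of HrasG12V shScram was low and library 3 high in both kinds. Between 8 and 14 of the 14 genes had a read in a library, and 4 were tested in RNA (Lce1a1, Lce1a2, Lce1c and Lce1m) and 5 in footprints, where Lce1f passed as well. The other Lce1 genes share 25.86% to 79.69% of their windows with another gene, so reads of those genes are uncertain. Lce1a1 footprints were 1.41, 3.57 and 1.11 CPM in HrasG12V shEif2b5, 1.78, 6.83 and 8.07 CPM in HrasG12V shScram, with 1.39, 3.17 and 2.75 CPM in WT shScram, with a difference of −1.44 between both HrasG12V conditions that did not pass (unadjusted p = 0.0159, adjusted p = 0.994). Lce1a1 RNA was 10.7, 12.1 and 5.17 CPM in HrasG12V shEif2b5, 1.34, 11.7 and 20.1 CPM in HrasG12V shScram, with 2.43, 6.61 and 4.70 CPM in WT shScram, and was called higher in HrasG12V shScram than in WT shScram when the low library 1 was left out (log2 1.84, adjusted p = 0.0244). Lce1i, which was below the filter, had 13, 6 and 20 RNA reads in HrasG12V shScram, against 2, 2 and 3 in WT shScram, and was called higher with no filter on low counts (adjusted p = 0.0393), with no fold given against so few reads. Lce3c and Lce3e had 6 and 4 reads in all.

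The 8 Sprr2 genes had few reads, too few for a test except for Sprr2a3 in RNA, and were higher in HrasG12V libraries by summed level. Their footprints summed to 4.43, 9.14 and 6.67 CPM in HrasG12V shEif2b5, 2.90, 5.74 and 4.26 CPM in HrasG12V shScram, with 1.67, 1.81 and 0.501 CPM in WT shScram. Neither HrasG12V condition overlapped WT. RNA sums were 10.4, 12.4 and 14.1 CPM in HrasG12V shEif2b5, 7.64, 11.1 and 3.02 CPM in HrasG12V shScram, with 1.21, 2.33 and 3.07 CPM in WT shScram, where the lowest HrasG12V shScram library was at the level of the highest WT library. Behind these stood 93 footprint reads in HrasG12V shEif2b5, 53 in HrasG12V shScram and 16 in WT shScram, and 93 RNA reads in HrasG12V shEif2b5, 74 in HrasG12V shScram and 26 in WT shScram. Sprr2d RNA had 9, 15 and 13 reads in HrasG12V shEif2b5 and 11, 6 and 3 reads in HrasG12V shScram, against 1, 0 and 2 reads in WT shScram. With no filter on low counts edgeR called Sprr2d RNA higher in HrasG12V shEif2b5 than in WT shScram (adjusted p = 0.00396), and likewise Sprr2a3 in footprints (adjusted p = 0.0293), with no fold given against so few WT reads. No p-value is given for the sums. The Sprr2 genes share 5.08% (Sprr2k) to 62.61% (Sprr2a3) of their windows with another gene. Sprr3 had 1 footprint read in all and Sprr4 was at most 2.90 CPM.

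**Figure D4:**
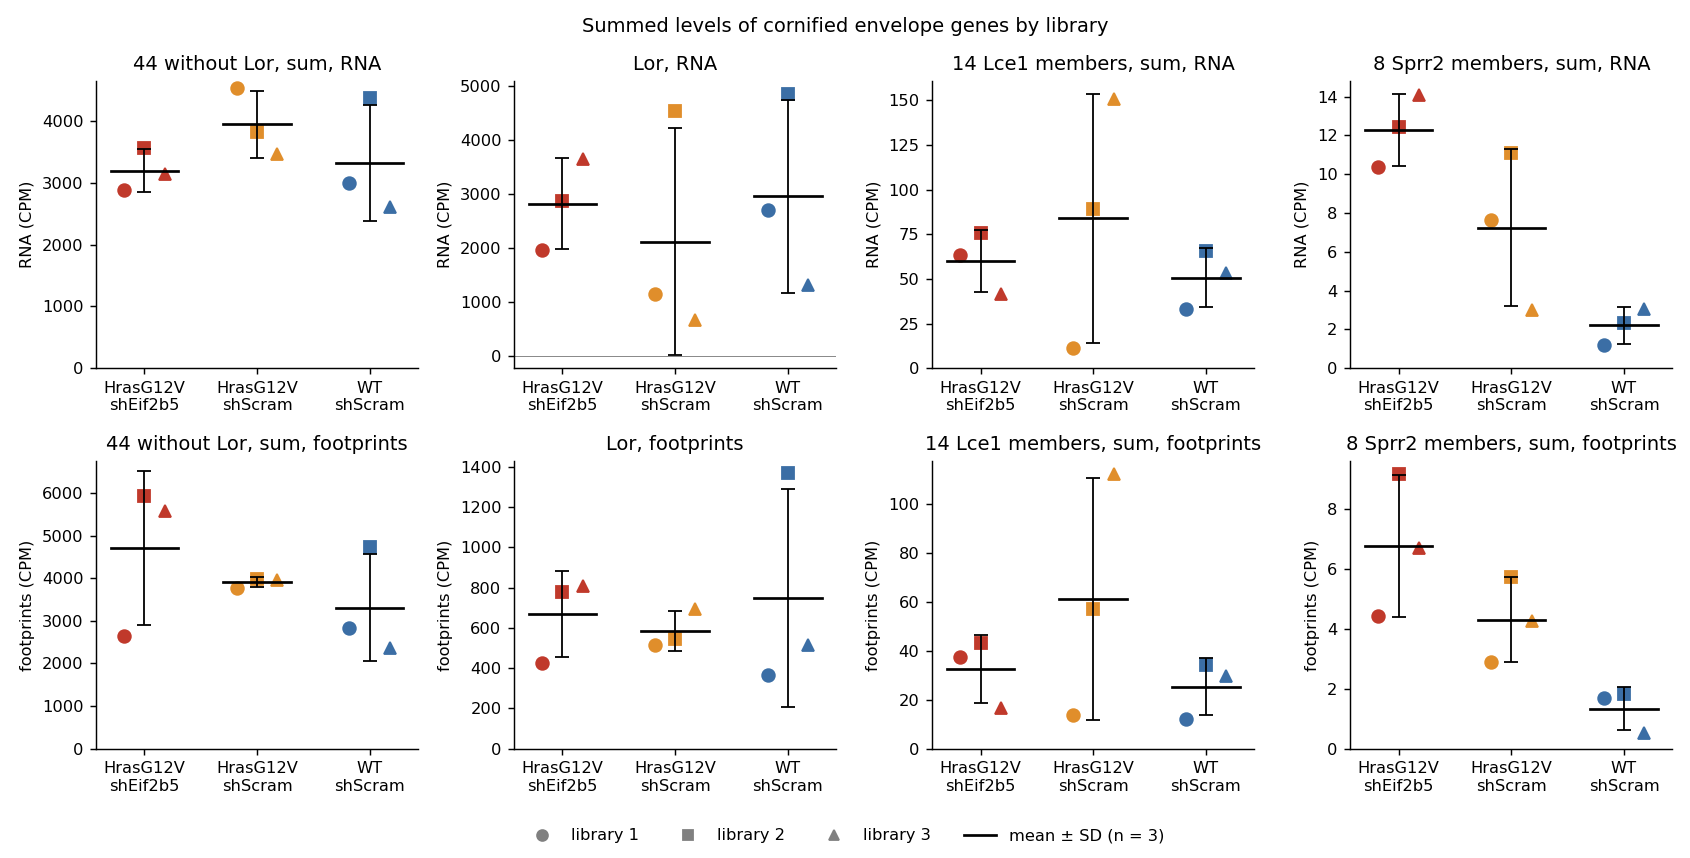
Summed CPM (y axis) of 44 members without Lor, of the 14 Lce1 members and of the 8 Sprr2 members, and Lor alone, in RNA (top) and footprints (bottom) by condition (x axis), 1 point per library with the mean and SD (n = 3). Sprr2 footprints in both HrasG12V conditions (2.90 CPM and above) exceeded WT (up to 1.81 CPM), while Lor and Lce1 overlapped.

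Of the enzymes, Asprv1 alone was called. Tgm1, the membrane-bound transglutaminase that cross-links envelope proteins, had 169, 159 and 161 CPM of RNA in HrasG12V shEif2b5, 175, 149 and 114 CPM in HrasG12V shScram, with 148, 175 and 113 CPM in WT shScram. Its footprints were 46.9, 152 and 161 CPM in HrasG12V shEif2b5, 76.0, 80.3 and 78.9 CPM in HrasG12V shScram, with 49.9, 86.6 and 39.3 CPM in WT shScram, a difference from WT of 1.02 in HrasG12V shEif2b5 (SE 0.51, adjusted p = 0.432). Libraries 2 and 3 of HrasG12V shEif2b5 were high and library 1 was near WT. Without that library, Tgm1 (log2 1.41, adjusted p = 0.0147) and the second transglutaminase Tgm3 (0.97, adjusted p = 0.0341) were called against WT shScram.

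Asprv1 (chromosome 6 from 86628164 to 86629710 on the plus strand, mm10) is the protease named above. Its RNA was 381, 495 and 400 CPM in HrasG12V shEif2b5, against 633, 610 and 689 CPM in HrasG12V shScram, with 484, 645 and 359 CPM in WT shScram. The HrasG12V conditions did not overlap each other, and WT overlapped both. It fell in HrasG12V shEif2b5 relative to HrasG12V shScram by 0.60 on the log2 scale (SE 0.19, adjusted p = 0.0425). In footprints Asprv1 had 501, 969 and 1024 CPM in HrasG12V shEif2b5, 675, 836 and 886 CPM in HrasG12V shScram, with 579, 986 and 516 CPM in WT shScram, with overlap throughout and a difference of 0.06 between the HrasG12V conditions (95% interval −0.74 to 0.86, adjusted p = 0.994). The RNA call was lost without any 1 of HrasG12V shEif2b5 libraries 1 to 3 (0.156, 0.0509 and 0.161) or HrasG12V shScram libraries 1 (0.103) and 3 (0.116), with log2 values of −0.52 to −0.71. Without both of the last the log2 value was −0.52.

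Casp14, a protease of the granular layer that acts on filaggrin, had RNA of 71.1, 104 and 86.4 CPM in HrasG12V shEif2b5, 177, 112 and 108 CPM in HrasG12V shScram, with 144, 183 and 99.3 CPM in WT shScram. The RNA difference between the HrasG12V conditions was −0.61 (SE 0.24, adjusted p = 0.0942). Casp14 footprints were 94.1, 207 and 166 CPM in HrasG12V shEif2b5, 195, 187 and 110 CPM in HrasG12V shScram, with 161, 183 and 114 CPM in WT shScram, and overlapped. The kallikreins that shed dead cells, Klk5 and Klk7, were not called: Klk5 RNA in HrasG12V shEif2b5 (45.9 to 59.2 CPM) was below every WT library (68.9 to 121 CPM), with a difference of −0.80 (SE 0.22, adjusted p = 0.185), and Klk7 RNA differed by −0.56 from HrasG12V shScram (SE 0.20, adjusted p = 0.0678). A term for the 3 deepest RNA libraries brought the Klk5 difference to −0.92 (adjusted p = 0.0208), and no filter brought that of Klk7 to an adjusted p of 0.0406. Their inhibitor Spink5, the junction protein Cdsn, and the lipid genes Alox12b, Aloxe3 and Elovl4 were not called in any test.

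The members varied more between libraries of 1 condition than most genes did. The median within-condition SD on the log2 scale, with an offset of 0.5 CPM, was 0.42 in RNA and 0.62 in footprints for the 24 members tested in each, against 0.25 and 0.21 over all genes tested. Above the 90th percentile of all genes were 9 members in RNA and 18 in footprints. In some conditions the members shared their extremes. WT shScram library 2 was the highest of its 3 for 21 of 22 members in RNA and 20 of 22 in footprints, and HrasG12V shEif2b5 footprint library 1 was the lowest for 20 of 22. In HrasG12V shScram footprints the members did not, with the highest value in library 1, 2 or 3 for 7, 7 and 8 members. In RNA of that condition these numbers were 13, 5 and 4, and library 3 was the lowest for 13 of 22. HrasG12V shEif2b5 RNA library 2 was the highest for 16 of 22. The shares over all genes were not taken for these counts. The summed footprints of 12 spinous genes were also lowest in library 1 of HrasG12V shEif2b5 and highest in library 2 of WT shScram within their conditions, at 24676, 72358 and 72326 CPM in HrasG12V shEif2b5, 40486, 34452 and 33365 CPM in HrasG12V shScram, with 29373, 46599 and 23767 CPM in WT shScram. Whether suprabasal cell content or another difference accounts for this was not tested. No gene of the spinous list was called in footprints, but in RNA 2 of the 12 rose in HrasG12V shScram relative to WT shScram (Krtdap, 1.15, adjusted p = 0.0140, and Skint3, 1.29, adjusted p = 0.0447). Relative to HrasG12V shScram, 2 fell in HrasG12V shEif2b5 RNA (Krtdap, −1.04, adjusted p = 0.0151, and Dsg1a, −0.70, adjusted p = 0.0167). The medians of the 12 were −0.18 and −0.10. Their summed RNA was 47915 to 60620 CPM in HrasG12V shEif2b5, 35548 to 64710 CPM in HrasG12V shScram and 66461 to 101353 CPM in WT shScram. By this sum every WT library lay above every HrasG12V library, although the genes called against WT rose. Of 17 hair follicle genes, 4 rose in HrasG12V shEif2b5 RNA relative to HrasG12V shScram (Shh, Krt25, Lef1 and Lhx2), against 5.23% of all genes. Between HrasG12V shScram and WT shScram, 1 of the 17 rose and 1 fell in RNA, against 4.65% and 3.05% of all genes. In footprints 2 of the 17 rose and 2 fell, larger shares than the 1.23% and 0.472% of all genes. Of 9 melanocyte genes, 2 rose in HrasG12V shScram RNA relative to WT shScram (Tyr and Tyrp1), against 4.65% of all genes. Relative to HrasG12V shScram, 1 of the 9 fell in HrasG12V shEif2b5 RNA, against 7.79%. The part of these cells in the members' values was not tested.

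Other genes of the same layers, in lists that do not overlap the members, were compared for context. Over all genes, 4.65% were called higher and 3.05% lower in HrasG12V shScram RNA than in WT shScram (median log2 0.01), and 5.23% higher and 7.79% lower in HrasG12V shEif2b5 RNA than in HrasG12V shScram (−0.01). Among barrier lipid genes, 18 of 20 were tested in RNA, and 4 rose in HrasG12V shScram relative to WT shScram with none lower. Their median was 0.41. The 3 with the smallest p were Lipk, an epidermal lipase (2.31, SE 0.39, adjusted p = 0.00286), Abca12, the transporter that loads lamellar granules (0.74, SE 0.19, adjusted p = 0.0263), and Nipal4, which has a part in barrier lipid formation (0.68, SE 0.19, adjusted p = 0.0364). In HrasG12V shEif2b5 relative to HrasG12V shScram, 7 of the 18 fell and none rose, with a median of −0.55. Lipm fell by 1.06 (SE 0.19, adjusted p = 0.00393), Elovl1, an elongase of very long fatty acids, by 0.82 (SE 0.19, adjusted p = 0.0132), and the ceramide synthase Cers3 by 0.79 (SE 0.19, adjusted p = 0.0152). Cers3 RNA was 30.4, 29.1 and 29.6 CPM in HrasG12V shEif2b5, against 55.4, 48.3 and 49.4 CPM in HrasG12V shScram, with 26.7, 43.1 and 27.7 CPM in WT shScram. Between HrasG12V shEif2b5 and WT shScram RNA none of the 18 was called, against 0.324% of all genes, and their median was −0.13. Both sets of barrier lipid calls above use the HrasG12V shScram RNA libraries, and no check with libraries left out is given for them. No barrier lipid gene was called in footprints, where 20 were tested.

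Of 16 other envelope and granular genes tested in RNA, Kprp (1.57, SE 0.38, adjusted p = 0.0219) and Trex2 (1.06, SE 0.26, adjusted p = 0.0219) rose in HrasG12V shScram relative to WT shScram and none fell, Csta1 fell in HrasG12V shEif2b5 relative to HrasG12V shScram (−0.68, SE 0.22, adjusted p = 0.0493), and Serpinb12 fell relative to WT shScram (−0.82, SE 0.16, adjusted p = 0.0275). Of 14 genes tested on a list of proteases and inhibitors, the cystatins Cst6 (0.73, adjusted p = 0.0308) and Cstb (0.58, adjusted p = 0.0444) rose in HrasG12V shScram RNA relative to WT shScram, and in HrasG12V shEif2b5 relative to HrasG12V shScram the protease Ctsd fell (−0.54, adjusted p = 0.0213). Kazn, which was on the list but encodes kazrin, a junction-associated protein and not a protease or an inhibitor, rose in the same comparison (1.00, adjusted p = 0.00690). In footprints, Klk6 rose in HrasG12V shScram relative to WT shScram (1.55, adjusted p = 0.0185) and Cstb rose in HrasG12V shEif2b5 relative to WT shScram (0.66, adjusted p = 0.0272). Of 20 regulators of late differentiation, Nfe2l2, which encodes the stress-response factor NRF2, rose in HrasG12V shScram RNA relative to WT shScram (0.92, adjusted p = 0.00685), Nfe2l1 fell (−0.52, adjusted p = 0.0377), and Nfe2l2 fell in HrasG12V shEif2b5 relative to HrasG12V shScram (−0.59, adjusted p = 0.0368). Klf4, Grhl3 and Ovol1, regulators of the granular program, were among the 18 regulators not called in any test. Basal markers were called in these comparisons too: Krt15 RNA fell in HrasG12V shScram relative to WT shScram (−0.98, adjusted p = 0.00400), and Krt14 (0.66, adjusted p = 0.0290) and Krt5 (0.61, adjusted p = 0.0420) rose in HrasG12V shEif2b5 relative to HrasG12V shScram. The summed RNA of the 15 basal genes was 17707 to 19909 CPM in HrasG12V shEif2b5, 11677 to 15535 CPM in HrasG12V shScram and 16819 to 21885 CPM in WT shScram, and its part in the results above was not tested.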

How the data were processed

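Ribosome footprints and total RNA were sequenced from mouse epidermis in 18 libraries, 3 per condition and kind. The authors deposited 1 table of raw counts, whole numbers of reads per gene over coding sequences. Bowtie, TopHat2, HTSeq and the mm10 build are named per the submitters' processing notes, and the treatment of reads matching several genes and the strand setting are not given in the sources used here. From the counts, edgeR 4.0.16 (with limma 3.58.1, R 4.3.3) was fitted separately to 9 RNA and 9 footprint libraries with condition as the only factor: filterByExpr (minimum count 10, total 15), TMM scaling, a robust quasi-likelihood fit and Benjamini-Hochberg adjustment over all genes tested. Translation efficiency was the interaction of condition and library kind over 18 libraries, for genes that passed the filter in each kind. CPM are counts relative to the TMM-scaled totals, and 3 counts corresponded to 0.542 to 1.67 CPM in RNA and 0.603 to 0.837 CPM in footprints. Intervals are 95%.

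Gene positions and coding lengths came from GENCODE M21 and promoters from RefSeq (GRCm38.p6). Shared sequence was counted as exact matches of 28-base windows between annotated coding sequences. The procedure was tested on simulated data. Alternatives were DESeq2 1.42.0 (size factors, and its Wald test), scaling without the members, no filter, a replicate block, leaving out libraries and, added after the library totals were seen, a term for the 3 deepest RNA libraries. The members and lists were chosen with earlier results of these data known. Values in every library are given for members called in any test and for a fixed set of others, and further members were named after their values were seen. Same-numbered libraries of different conditions did not deviate together throughout (correlations of −0.30 to 0.29), so the conditions were not paired by number. Footprint and RNA libraries of the same number and condition correlated at 0.0157 to 0.279 and matched best in 8 of 9 cases. The tests did not use this pairing, except under the replicate block, while the footprint to RNA ratios by number did.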

Additional observations from a re-analysis of the deposited data

Results flagged for a closer look

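One result met the criterion that an effect differed between the 2 kinds of library by a test of the difference itself. For Sprr1a, footprint minus RNA log2 fold change in HrasG12V shScram against WT shScram was −1.89 (SE 0.45, adjusted p = 0.0380, edgeR's quasi-likelihood test with Benjamini-Hochberg adjustment). Footprints were 5.57 to 9.01 CPM in HrasG12V shScram, against 10.5 to 19.2 CPM in WT shScram, while RNA was 9.93 to 20.5 CPM in HrasG12V shScram, against 6.69 to 12.9 CPM in WT shScram. The ratio of footprint to RNA, taken within a condition between libraries of the same number, was 0.292 to 0.632 in HrasG12V shScram, against 1.49 to 1.57 in WT shScram. Groups of 3 libraries are too small to tell a single outlying library from ordinary spread. The Sprr1a translation efficiency call was lost when single libraries of either condition were left out. Without WT shScram footprint library 1 the adjusted p was 0.131 (edgeR, log2 −1.76).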

How the results depend on the processing

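With HrasG12V shScram against WT shScram RNA, the count of members called was 1. It was 2 with no filter on low counts (Rptn and Lce1i), 2 with DESeq2's Wald test and 0 to 1 when single libraries were left out. With HrasG12V shEif2b5 against HrasG12V shScram RNA it was 2, and 1 with a term for the 3 deepest RNA libraries and 0 to 4 leaving out single libraries. With no filter, Klk7 was called in that comparison as well as Asprv1 and Flg2. With HrasG12V shEif2b5 against WT shScram RNA it was 0, and 1 with no filter, 1 with DESeq2, 1 with the depth term, and 0 to 1 leaving out single libraries. In footprints it was 1 for HrasG12V shScram against WT shScram (2 with DESeq2, 0 to 1 leaving out single libraries), 0 for HrasG12V shEif2b5 against HrasG12V shScram (0 to 1) and 0 for HrasG12V shEif2b5 against WT shScram (1 with no filter, 2 with DESeq2, 0 to 4 leaving out single libraries). The 4 without HrasG12V shEif2b5 footprint library 1 were Rptn, Sprr2a3, Tgm1 and Tgm3. For translation efficiency it was 1 for HrasG12V shScram against WT shScram, and 0 to 1 leaving out single libraries. The replicate block left the member counts of all 9 tests as they were, with Sprr1a translation efficiency at an adjusted p of 0.0124 under the block. The causes were not tested. No sign of a called value reversed.

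Over all genes, the calls were 854 for HrasG12V shScram against WT shScram RNA and 1444 for HrasG12V shEif2b5 against HrasG12V shScram RNA (316 with the depth term). Leaving out HrasG12V shScram RNA libraries 1 and 3 leaves 1 library in that group, so counts of calls from that fit are not given. The calls for HrasG12V shEif2b5 against WT shScram were 36 in RNA (72 with no filter, 64 with DESeq2, 64 with the depth term) and 111 in footprints (216 with no filter, 229 with DESeq2, 184 with the block). Translation efficiency calls were 127 for HrasG12V shScram against WT shScram (236 with DESeq2) and 246 for HrasG12V shEif2b5 against HrasG12V shScram (373 with DESeq2, 5 with the depth term). Low counts limit the Lce1, Lce3 and Sprr2 genes, and the members' median SE in footprints was 0.49 to 0.50, against 0.18 over all genes.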

Other observations

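Sprr4, which encodes a small proline-rich protein, was read more often in footprints than in RNA. It had 2, 13 and 8 footprint reads in HrasG12V shEif2b5, 5, 0 and 3 in HrasG12V shScram and 1, 1 and 2 in WT shScram. The RNA libraries held 1, 0 and 2 reads in HrasG12V shEif2b5, 0, 0 and 2 in HrasG12V shScram and 0, 0 and 1 in WT shScram. The gene was below the filter on low counts in both kinds, so no test was made, and its coding sequence shares no 28-base window with another gene.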
